A study of Mus musculus with 8 samples.

Results

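Intronic open regions are stretches of accessible chromatin inside the body of a protein-coding gene, away from its start and outside its exons. In hepatocyte nuclei profiled by bulk ATAC-Seq, 25310 of 73710 consensus regions (34.3%) met this definition. They were chosen by rank within each list and by position, and not by change over time. Each of the 8 peak lists was collapsed to distinct intervals, the 50000 intervals with the highest −log10 p were kept per library, and the kept intervals were merged across libraries. A region was intronic if it lay more than 1 kb from every annotated transcription start site (TSS), wholly inside a protein-coding gene and off every annotated exon. Of the other regions, 17649 (23.9%) lay within 1 kb of a TSS and are called promoter regions, 21632 (29.3%) were intergenic, 6248 (8.48%) overlapped an exon and 2871 (3.89%) lay in genes of other kinds or across a gene border.

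ATAC-Seq uses the Tn5 transposase, which inserts sequencing adapters into DNA that nucleosomes leave exposed. Introns of mammalian genes hold many enhancers, which bind transcription factors and raise transcription from a promoter at a distance. Enhancers tend to be open in few cell types, whereas promoters of widely used genes are open in most. In liver, enhancers are known for binding HNF4, FOXA and C/EBP factors. AP-1, a dimer of Fos and Jun proteins, is induced by growth and stress signals, and CTCF binds insulators and the anchors of chromatin loops. After partial hepatectomy (PHx), an operation that takes out a share of the liver, the remaining hepatocytes enter the cell cycle while the organ keeps its metabolic work.

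The hepatocytes were isolated by collagenase perfusion from C57BL/6 mice (adult male C57BL/6J in the study's methods) on a normal diet, labelled 10 to 12 weeks old. The 4 groups were undamaged liver (0 h) and liver at 48, 72 and 96 h after PHx, with 2 libraries each, and the labels do not say whether the libraries of a group came from separate animals (the study's methods give more mice per time than the libraries analysed here, and a slightly younger age at PHx). For 0 and 48 h the study describes its bulk libraries as biological replicates from different hepatocyte preparations. The p-values measure only the spread between these libraries. All times after PHx were compared with the same 2 libraries of undamaged liver. Peaks had been called in each library on its own, with no read counts in the lists, which leaves the depth behind a region unknown. The distinct intervals numbered 105206 to 154577 per library, and the −log10 p of the last kept interval ranged from 8.05 (48 h replicate 1) to 15.2 (0 h replicate 1). The name of 72 h replicate 2 carries another run name than those of the other 7 libraries, so a difference of sequencing run and of that library cannot be told apart. In bulk nuclei, a region open in fewer cells and a region less open in every cell cannot be told apart either.

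The label of the cells was checked against markers. Promoter regions of 10 hepatocyte markers (Alb, Apoa1, Hnf4a and others) held a kept interval for 8 and 8 genes at 0 h (replicates 1 and 2), then 4 and 6 at 48 h, 4 and 5 at 72 h, ending with 6 and 7 at 96 h. The promoters of 6 Kupffer cell and leukocyte markers (Ptprc, Adgre1, Clec4f, Csf1r, Cd5l and Vsig4) held none in any of the 8 libraries. Of 6 endothelial markers, Stab2, Lyve1, Pecam1, Tek and Ptprb had none in any library and Kdr had 1, in 72 h replicate 2. Stellate cell markers had a kept promoter interval in 2 of 6 genes in all libraries (none for Pdgfrb, Des, Dcn and Colec11), and cholangiocyte markers in 2 to 4 of 6 (none for Krt19 and Krt7). Marker genes of these other cells held 2 (Kupffer and leukocyte), 14 (endothelial), 7 (stellate) and 3 (cholangiocyte) of the intronic regions. Of the 14 in endothelial markers, 9 and 7 were present at 0 h and 5 to 8 in later libraries, with 2 (14.3%) lost at 48 h, 0 at 72 h and 1 (7.14%) at 96 h. Over all intronic regions 4.22%, 2.97% and 2.90% were lost at these times, and so few regions are only a description. Over the introns of Stab2 the mean log2 fold enrichment differed from undamaged liver by −0.20 (48 h), −0.24 (72 h) and −0.36 (96 h, limma, unadjusted p = 0.0145, adjusted p = 0.743). The 1 stellate marker in this fit went the other way, by 0.28, 0.33 and 0.13. Of the 7 stellate regions, 1 (14.3%) was gained at 48 h and 1 at 72 h, against 2.96% and 3.38% of all intronic regions. The part of these other cells in the results on introns was not tested.

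A few regions are shown first as sequence, each as the 200 bp around the summit of its strongest interval (mm10, plus strand, read from GRCm38.p6), because the results on motifs and on named genes below turn on such windows. Capitals mark each match to 1 of 15 transcription factor motifs searched on both strands. The first 3 were among the strongest intervals after PHx and not in undamaged liver. They were chosen for a CTCF match (4932414N04Rik and Ssbp2) or an AP-1 match (Creb3l1), so those matches are not a result. Gained regions of Prune2 and Ski at 48 h ranked above that of Creb3l1 and held neither motif. Gained regions of Them7 at 72 h likewise ranked above that of Ssbp2 and held neither. The window in an intron of 4932414N04Rik, at chr2:68744671-68744870, held a CTCF match and a TEAD match (ACATTCC). The window in the first intron of Creb3l1, at chr2:92004710-92004909, held the AP-1 word TGACTCA at 2 places and an ONECUT match. The window in an intron of Ssbp2, at chr13:91648375-91648574, held a CTCF match.
4932414N04Rik, gained at 48 h: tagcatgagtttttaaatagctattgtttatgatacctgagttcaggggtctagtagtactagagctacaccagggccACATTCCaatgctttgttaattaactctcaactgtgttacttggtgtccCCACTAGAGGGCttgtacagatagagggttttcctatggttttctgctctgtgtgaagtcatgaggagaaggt
Creb3l1, gained at 48 h: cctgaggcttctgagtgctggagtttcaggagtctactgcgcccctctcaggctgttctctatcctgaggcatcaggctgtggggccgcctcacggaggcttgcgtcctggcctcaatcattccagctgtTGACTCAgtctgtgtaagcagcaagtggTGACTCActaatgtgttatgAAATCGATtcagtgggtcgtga
Ssbp2, gained at 72 h: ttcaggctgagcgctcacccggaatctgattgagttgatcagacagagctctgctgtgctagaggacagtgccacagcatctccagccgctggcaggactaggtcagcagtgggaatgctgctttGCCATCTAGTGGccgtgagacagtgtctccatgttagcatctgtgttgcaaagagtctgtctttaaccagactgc

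The next 3 were accessible in undamaged liver and dropped out of the strongest intervals. The Spata9 window at chr13:75976701-75976900 held 1 HNF4 match (CAAAGTCCA), 2 FOXA matches and 1 C/EBP match, and is shown as the highest-ranked member lost at 48 h that held an HNF4 word, chosen after its values were seen. The Fam129b window at chr2:32918429-32918628 held 1 FOXA match. The Catsperd window at chr17:56643323-56643522 held 1 AP-1 match. The Fam129b and Catsperd windows were chosen for these matches. Regions lost at 48 h in Ogdh, Dnah11, Adk and Vps4b ranked above that of Fam129b and held none of the 15 motifs. The Ogdh window at chr11:6333464-6333663 and the Prune2 window at chr19:17163544-17163743, the highest-ranked regions lost at 48 h and gained at 96 h, held none of the 15 motifs and are shown as such.
Spata9, lost at 48 h: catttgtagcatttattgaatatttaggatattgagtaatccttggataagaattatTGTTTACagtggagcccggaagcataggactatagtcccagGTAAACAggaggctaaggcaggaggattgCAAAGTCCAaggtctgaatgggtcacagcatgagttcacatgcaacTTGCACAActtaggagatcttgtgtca
Fam129b, lost at 48 h: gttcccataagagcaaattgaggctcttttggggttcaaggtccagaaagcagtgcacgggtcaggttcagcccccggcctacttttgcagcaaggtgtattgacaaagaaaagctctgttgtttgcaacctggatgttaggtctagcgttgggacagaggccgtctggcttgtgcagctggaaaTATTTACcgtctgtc
Catsperd, lost at 96 h: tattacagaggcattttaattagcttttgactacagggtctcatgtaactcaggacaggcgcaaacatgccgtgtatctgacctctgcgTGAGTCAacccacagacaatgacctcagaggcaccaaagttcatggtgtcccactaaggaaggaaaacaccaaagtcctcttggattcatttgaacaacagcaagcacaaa
Ogdh, lost at 48 h: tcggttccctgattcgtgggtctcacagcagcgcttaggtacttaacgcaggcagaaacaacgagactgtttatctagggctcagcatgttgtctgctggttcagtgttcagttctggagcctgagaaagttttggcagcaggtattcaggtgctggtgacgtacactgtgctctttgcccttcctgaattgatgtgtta
Prune2, gained at 96 h: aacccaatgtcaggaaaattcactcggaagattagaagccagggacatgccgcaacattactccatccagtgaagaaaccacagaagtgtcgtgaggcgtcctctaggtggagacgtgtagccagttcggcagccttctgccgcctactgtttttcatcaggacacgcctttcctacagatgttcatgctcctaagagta

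Intronic regions were narrower and less often shared than promoter regions. Their median width was 558 bp, against 988 bp for promoter and 577 bp for intergenic regions, and their median distance from the nearest TSS was 15536 bp. Only 6999 of the 25310 intronic regions (27.7%) were present in all 8 libraries, that is, overlapped a kept interval in each. This share was 65.4% for promoter, 31.6% for intergenic and 38.7% for all regions. At the other end, 5386 intronic regions (21.3%) were present in 1 library, against 8.04% of promoter and 16.4% of all regions. A single library held 14409 to 15077 of the intronic regions (56.9% to 59.6%) among its strongest intervals, and 86.7% to 96.0% of them anywhere in its list. The plot of recurrence shows both ends of this distribution.

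**Figure D1:**
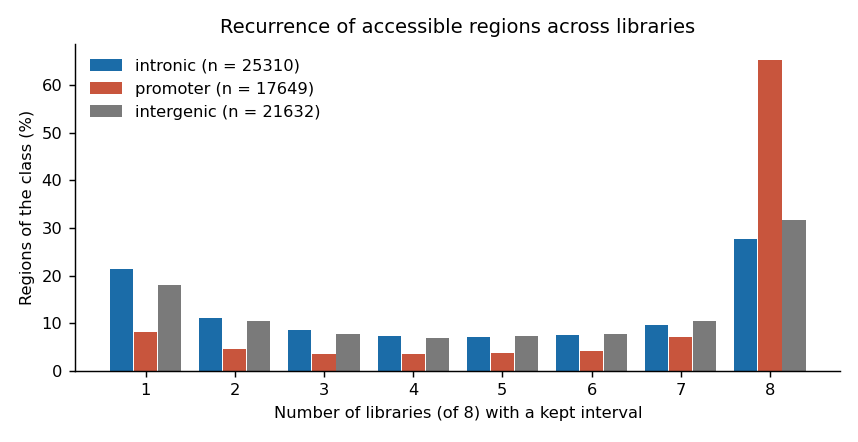
Share of regions of each class (vertical axis, %) by the number of libraries with a kept interval (horizontal axis, 1 to 8). Intronic regions peak at both ends, with 21.3% in 1 library and 27.7% in all 8, whereas 65.4% of promoter regions were present in all 8.

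Within a library, intronic intervals were weaker than promoter intervals and held other motifs. Features of the kept intervals were compared between classes inside each of the 8 libraries by an exact paired permutation test (all sign flips over the 8 libraries, two-sided, smallest p 0.00781), with adjustment over the 40 comparisons made, and 35 passed an adjusted p of 0.05. The median fold enrichment over local background was 7.66 ± 0.887 for intronic intervals and 9.52 ± 1.12 for promoter intervals (mean ± SD, n = 8 libraries). It was lower in introns in 8 of 8 libraries (exact permutation, adjusted p = 0.00947). Against intergenic intervals (8.36 ± 1.01) it was also lower in 8 of 8 libraries, at the same adjusted p. Among the 25000 strongest intervals the gap to promoters was smaller, at 10.8 against 11.3 and lower in 7 of 8 libraries (exact permutation, adjusted p = 0.0179). The GC content of the 200 bp windows was 49.7% ± 0.281 in introns, 64.0% ± 0.237 at promoters and 49.8% ± 0.324 between genes. The intergenic difference in GC content did not pass (exact permutation, adjusted p = 0.0507, lower in 7 of 8 libraries), but did among the 25000 strongest intervals (50.9% and 51.2%, lower in 8 of 8 libraries, adjusted p = 0.00919).

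The words of FOXA, HNF4 and AP-1 were more frequent in introns than in both other classes. The FOXA words (TGTTTAC or TATTTAC) occurred in 9.70% ± 0.523 of intronic, 3.05% ± 0.146 of promoter and 9.02% ± 0.354 of intergenic intervals (n = 8 libraries). The HNF4 words (CAAAGTCCA or CAAAGGTCA) occurred in 3.31% ± 0.299, 0.825% ± 0.0744 and 3.04% ± 0.329. AP-1 (TGACTCA) occurred in 6.62% ± 0.589, 2.75% ± 0.184 and 6.27% ± 0.537. All of these differences had the same sign in 8 of 8 libraries (exact permutation, adjusted p = 0.00947). So did those of TEAD (3.26%, 1.60% and 3.04%) and of the rare NFI motif (0.0455% of intronic intervals), at the same adjusted p. GATA words were also more frequent in introns than in both classes. In 400 bp windows TEAD words were less frequent in intronic than in intergenic intervals (6.13% and 6.34%, exact permutation, adjusted p = 0.0174). C/EBP words (TTGCGCAA, TTGCACAA or TTATGCAA) occurred in 3.68% of intronic and 3.47% of intergenic intervals, and the difference had the same sign in 7 of 8 libraries (exact permutation, adjusted p = 0.0184). In 400 bp windows that C/EBP difference turned round and did not pass (5.08% and 5.19%, exact permutation, adjusted p = 0.160). Of the other liver factors, ONECUT words did not differ detectably from intergenic intervals (2.70% and 2.71%, exact permutation, adjusted p = 0.805), and HNF1 words were less frequent (0.0439% and 0.0803%, in 8 of 8 libraries, exact permutation, adjusted p = 0.00947). The HNF1 motif was rare, in 9 of 25310 intronic and 16 of 21632 intergenic consensus regions. The libraries thus count few HNF1 sites, largely the same ones. In the opposite direction, the CTCF motif occurred in 7.76% ± 0.540 of intronic, 11.3% ± 0.617 of intergenic and 2.36% ± 0.114 of promoter intervals. Words of factors that bind promoters were rare in introns. The KLF/SP word GGGCGGGG occurred in 1.62% of intronic and 23.3% of promoter intervals, and the ETS word CCGGAAGT in 0.208% and 4.71% (both in 8 of 8 libraries, exact permutation, adjusted p = 0.00947). In 32851 RefSeq promoter windows of the same length (mm10), the HNF4 words occurred in 0.627%, the FOXA words in 4.76%, AP-1 in 3.61% and CTCF in 0.393%. A match describes letters in a window and is not evidence that a factor was bound.

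The intronic share of the kept intervals did not differ detectably between undamaged and regenerating liver. It was 31.2% and 31.7% at 0 h, then 31.2% and 30.8% at 48 h, 31.7% and 31.4% at 72 h, ending with 31.1% and 31.3% at 96 h. The means were 31.4% ± 0.368 (n = 2) at 0 h and 31.3% ± 0.306 (n = 6) after PHx, a difference of −0.161 percentage points (exact permutation p = 0.607 over the 28 ways to choose 2 libraries, two-sided, smallest possible 0.0357).

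Changes in single regions were first counted by presence. An intronic region was gained at a time if present in both libraries of that time and in neither library of undamaged liver, and lost in the reverse case. At 48 h, 750 intronic regions (2.96%) were gained and 1068 (4.22%) were lost. Over all 73710 regions, 2.65% were gained and 3.50% were lost. At 72 h, 856 (3.38%) were gained and 751 (2.97%) lost, against 2.88% and 2.74% of all regions. At 96 h, 626 (2.47%) were gained and 733 (2.90%) lost, against 2.23% and 2.42%. Intronic regions thus stood close to intergenic ones (2.88% gained and 3.83% lost at 48 h) and above promoter regions (1.71% and 1.81%). Promoter regions were present more often in all libraries, and no test of the difference was made.

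**Figure D2:**
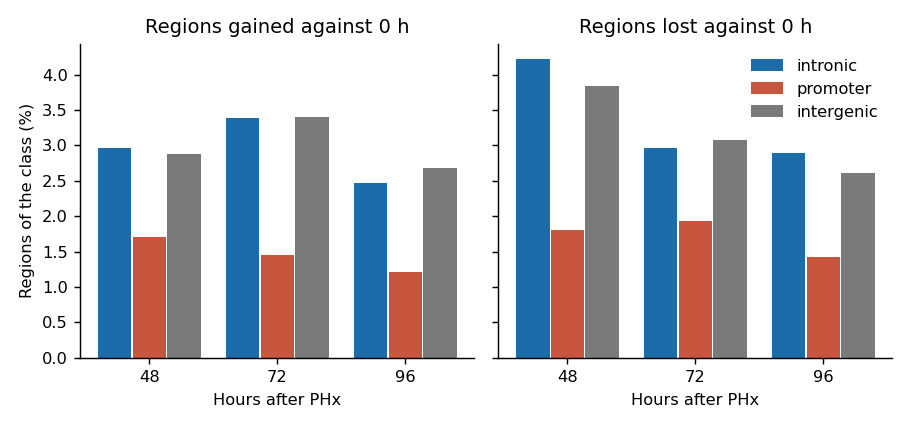
Share of intronic, promoter and intergenic regions (vertical axis, %) gained (left) or lost (right) at 48, 72 and 96 h after PHx against the same 2 libraries of undamaged liver. The tallest intronic bar is that of regions lost at 48 h, at 4.22%.

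Most of these regions stayed in the lists below the 50000 strongest intervals. Of the 750 gained at 48 h, 15 had no interval at all in either full list of undamaged liver, and of the 1068 lost, 40 had none in either full list of 48 h. The same counts were 19 and 2 for 72 h, with 9 and 5 for 96 h. Counts were higher when 1 of the 4 libraries of a comparison was left out, as the criterion then covers fewer libraries. At 48 h, gained regions then numbered between 1263 (0 h replicate 2 left out) and 2468 (48 h replicate 2 left out), and lost regions between 2036 (without 48 h replicate 1) and 2741 (without 0 h replicate 1). At 72 h the ranges were 1436 (without 0 h replicate 2) to 2394 (without 72 h replicate 1) gained and 1488 (without 72 h replicate 2) to 2366 (without 0 h replicate 1) lost. At 96 h they were 1136 (without 0 h replicate 2) to 2321 (without 96 h replicate 1) gained and 1642 (without 0 h replicate 2) to 2343 (without 0 h replicate 1) lost. Which of the counts was larger changed with the library left out at each time. Without 48 h replicate 1, for example, 2307 regions were gained and 2036 lost.

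The regions with the highest ranks among those gained and lost show the size of the changes. Strength is given as the fold enrichment of the strongest interval, in the order 0, 48, 72 and 96 h and replicates 1 and 2. The region in intron 27 of 4932414N04Rik (chr2:68744635-68744958) had fold enrichments of 6.54 and 3.38 at 0 h, then 13.4 and 13.0 at 48 h, 9.44 and 9.34 at 72 h, ending with 14.6 and 8.18 at 96 h. Its 48 h libraries, and all others after PHx, lay above both libraries of undamaged liver. The region in intron 9 of Prune2 (chr19:17163351-17163956) had 5.98 and 5.49 at 0 h, then 10.7 and 11.2 at 48 h, 20.4 and 9.94 at 72 h, ending with 14.3 and 13.1 at 96 h, again with no overlap. The AP-1 bearing region in the first intron of Creb3l1 (chr2:92004603-92004950), a gene for a transcription factor of the endoplasmic reticulum, had 4.22 and 2.72 at 0 h, then 7.67 and 7.12 at 48 h, 5.93 and 6.59 at 72 h, ending with 6.90 and 5.43 at 96 h. The other regions of this rank gained at 48 h lay in Ski, which encodes a repressor of TGF-beta signalling, and in Dlgap1. At 72 h they were 2 regions of Them7, Ssbp2, Fndc3b and Stk24, and at 96 h Prune2, Lama5, Asb8, Vopp1 and Dlg1.

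Some regions lost at 48 h were present again later. The region in intron 4 of Ogdh (chr11:6333101-6333955), whose product is a subunit of a citric acid cycle enzyme, had fold enrichments of 14.5 and 13.1 at 0 h, then 4.55 and 4.04 at 48 h, 10.8 and 7.25 at 72 h, ending with 10.2 and 9.21 at 96 h. A region in intron 57 of Dnah11 (chr12:117980782-117981447) had 16.5 and 15.3, then 3.91 and 5.22, then 14.5 and 9.93, and 14.7 and 13.3 at 96 h. Both were among the strongest intervals of all libraries except those of 48 h. The Spata9 region with the HNF4 and FOXA words (chr13:75976675-75977190) had 12.9 and 14.8 at 0 h, then 3.55 and 4.85 at 48 h, 8.01 and 5.42 at 72 h, ending with 3.82 and 8.18 at 96 h, and stayed below undamaged liver in all 6 libraries after PHx. The other regions of this rank lost at 48 h lay in Adk, which encodes adenosine kinase, Vps4b and Fam129b. At 72 h they lay in Gemin5, Alg9, Phf6, Rims2 and Rcan2, and at 96 h in Catsperd, Kctd17, Eif4g3, Ergic1 and Ppm1l. These regions were chosen for their change, so their values describe it and carry no test.

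Gained and lost intronic regions held different shares of several motifs. The AP-1 word occurred in 81 of the 750 windows gained at 48 h (10.8%) and in 47 of the 1068 lost (4.40%), against 6.68% of all intronic regions. At 72 h it occurred in 7.48% of those gained and 3.46% of those lost, and at 96 h in 6.07% and 5.59%. CTCF matches occurred in 11.6% of the gained and 2.43% of the lost at 48 h, 8.65% and 4.0% at 72 h, then 10.5% and 3.68% at 96 h, against 6.52% of all intronic regions. HNF4 words went the other way, with 1.47% of gained and 4.49% of lost regions at 48 h, 2.22% and 5.06% at 72 h, then 1.12% and 4.91% at 96 h (all intronic regions 3.28%). FOXA words occurred in 6.67% and 10.8% at 48 h, 8.06% and 11.9% at 72 h, then 8.15% and 10.4% at 96 h (all intronic regions 9.58%). The same shares over all regions gained and lost at 48 h were 9.33% and 4.07% for AP-1, 12.3% and 2.25% for CTCF, 1.33% and 3.88% for HNF4 and 5.33% and 10.5% for FOXA, so the contrast was not particular to introns. Regions are not replicates and the 3 times share their controls, and these shares carry no test.

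The same motifs were then read in every library over all its kept intronic intervals, 15390 to 15845 per library. Of the 15 motifs, 4 had shares at 0 h that lay outside the range of the 6 libraries after PHx. HNF4 words were present in 3.60% and 3.85% of intronic intervals at 0 h, then 3.02% and 2.96% at 48 h, 3.11% and 3.37% at 72 h, ending with 3.27% and 3.31% at 96 h. FOXA words were present in 10.6% and 10.1% at 0 h, then 9.21% and 9.0% at 48 h, 9.62% and 9.39% at 72 h, ending with 9.70% and 9.87% at 96 h. For both, undamaged liver was highest and 48 h lowest. That undamaged liver was highest was not particular to introns for either word. HNF4 shares at 0 h were 3.27% and 3.66% of intergenic intervals (2.63% to 3.10% after PHx) and 0.952% and 0.910% of promoter intervals (0.733% to 0.832%), and FOXA shares were 9.56% and 9.41% (8.69% to 9.33%) and 3.21% and 3.31% (2.85% to 3.09%). The KLF/SP word was also highest at 0 h (1.68% and 1.76%, and 1.52% to 1.62% after PHx). CTCF was lowest at 0 h, with 7.28% and 6.99%, and stood at 8.12% and 8.69% at 48 h, 7.45% and 7.83% at 72 h, then 8.07% and 7.65% at 96 h. It was also lowest at 0 h in intergenic intervals (10.7% and 10.4%, and 10.9% to 12.4% after PHx). AP-1 words stood at 6.43% and 5.69% at 0 h, then 7.52% and 7.22% at 48 h, 6.51% and 6.97% at 72 h, ending with 6.22% and 6.40% at 96 h. Both 48 h libraries were above all others for AP-1, and undamaged liver overlapped the later times. The 48 h libraries were also highest for AP-1 in intergenic intervals (7.10% and 6.81%, against at most 6.69% in the others). In promoter intervals they stood at 3.09% and 2.90%, against at most 2.80%. The median fold enrichment of intronic intervals was also lowest at 48 h, at 6.13 and 6.68, against 7.18 to 8.54 in the other 6 libraries, and its part in the motif shares was not tested. In windows of 400 bp the KLF/SP shares overlapped (2.73% and 2.81% at 0 h, 2.69% to 2.84% after PHx), whereas HNF4 and FOXA stayed higher and CTCF lower at 0 h, as they did among the 25000 strongest intervals.

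**Figure D3:**
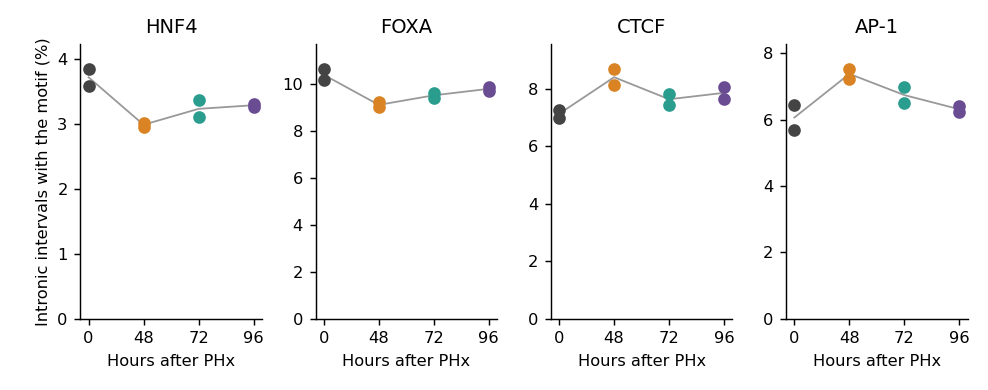
Share of kept intronic intervals whose 200 bp window holds a motif (vertical axes, %, from 0) by hours after PHx (horizontal axes), with 1 point per library and a line through the means. HNF4 and FOXA shares are highest at 0 h, CTCF is lowest at 0 h, and AP-1 is highest at 48 h.

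Intronic regions were unevenly spread over genes. They fell in 7674 protein-coding genes, of which 3166 held 1 region and the median gene held 2. The 517 genes with at least 10 regions held 8187 of them (32.3%). Longer introns held more, with a Spearman correlation across genes of 0.591 between intron length and number of regions, given as a description since genes are not independent. In each gene's longest coding transcript in the annotation used, first introns made up 25.8% of the intron bases of these genes. Of the 24234 regions that could be placed in introns of these transcripts, 32.0% lay in the first intron. This share was 31.6% and 32.3% among the regions present at 0 h, then 31.4% and 31.1% at 48 h, 30.9% and 30.2% at 72 h, ending with 30.0% and 30.0% at 96 h, so undamaged liver lay above all 6 later libraries.

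The top of the list of genes depended on the gene models. Gm20388 held 247 intronic regions and Gm37240 held 52. Both are long models that run through neighbouring genes, and 135 and 23 of their regions also lay in another coding gene. The model of Fgfr2, a receptor for fibroblast growth factors, spans 2961 kb in the annotation used and 104 kb in RefSeq. Of its 94 regions 5 lay within the RefSeq body, so its count mostly describes the neighbourhood. The 12 other genes among the first 15 were Pde4d with 56 regions, Foxp1 with 49, Gse1 and Nav2 with 48, Prkce, Ptprg and Rora with 45, Arid1b and Zbtb20 with 42, Magi1 with 38, and Plcb1 and Pard3 with 37. All 48 regions of Gse1 also lay in Gm20388, and 20 of the 49 of Foxp1 lay in another coding gene. With each region counted once, in the shortest gene around it (an alternative chosen after seeing the data), Gm20388 held 112, Fgfr2 36, Foxp1 29 and Gm37240 29, and the last 2 left the first 15. Counted within RefSeq gene bodies, Foxn3 (36), Itpr1 (34) and Kalrn (33) entered the first 15. The order also depended on the processing. The largest count over the alternatives was 213 for Pde4d, but 237 for Magi1, 235 for Foxp1, 234 for Ptprg and 216 for Zbtb20.

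Pde4d, which encodes a phosphodiesterase that degrades cyclic AMP, held the most regions within a RefSeq gene body, 52 of its 56 (gene at chr13:108449948-109953461). Of its 56 regions, 40 and 35 were present at 0 h, then 40 and 42 at 48 h, 42 and 39 at 72 h, ending with 37 and 46 at 96 h, so every time overlapped undamaged liver. Arid1b, a subunit of the SWI/SNF chromatin remodeller (chr17:4994332-5347656), went from 23 and 21 of 42 regions at 0 h to 23 and 24 at 48 h, 29 and 29 at 72 h, then 27 and 24 at 96 h, above undamaged liver at 72 and 96 h. Foxp1, a forkhead transcription factor (chr6:98925338-99522721), had 28 and 21 of 49 regions at 0 h, then 31 and 28 at 48 h, 32 and 34 at 72 h, ending with 27 and 28 at 96 h, above undamaged liver at 72 h. Zbtb20, a zinc finger repressor known for silencing alpha-fetoprotein in adult liver (chr16:42875881-43642602), went the other way. Of its 42 regions, 23 and 25 were present at 0 h, then 25 and 19 at 48 h, 18 and 22 at 72 h, ending with 15 and 17 at 96 h, below undamaged liver at 72 and 96 h. Rora, a nuclear receptor of the clock (45 regions), had 27 and 28 at 0 h, then 25 and 25 at 48 h, 27 and 23 at 72 h, ending with 27 and 19 at 96 h, below at 48 h. Prkce, a protein kinase C (45 regions), had 31 and 30 at 0 h, then 33 and 31 at 48 h, 30 and 27 at 72 h, ending with 28 and 24 at 96 h, where both lay below undamaged liver. These counts concern presence among the strongest intervals. At the times named, mean log2 fold enrichment differed by 0.05 and 0.01 (Arid1b), 0.21 (Foxp1) and −0.03 and −0.10 (Zbtb20). For Rora and Prkce it differed by −0.13 and −0.11. Each SE was 0.12, and the adjusted p values by limma were 0.798 to 0.995.

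Among the first 15 genes, the number of regions present was above undamaged liver without overlap in 2 at 48 h, 6 at 72 h and 2 at 96 h, and below it in 1, 1 and 2. Among all 517 genes with at least 10 regions, these shares were 8.90%, 21.7% and 12.4% above and 14.5%, 15.9% and 13.0% below. The 6 genes at 72 h included Gm20388 and Fgfr2, with 53 and 49 regions at 0 h and 64 and 65 at 72 h for Fgfr2. The plot of the first 15 genes shows every library.

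**Figure D4:**
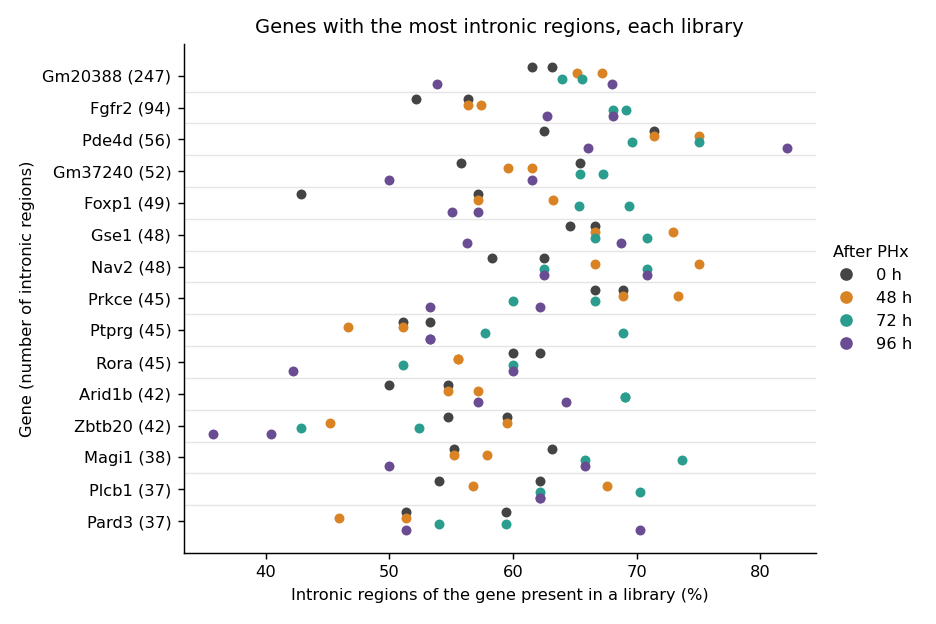
Intronic regions of a gene present in a library (horizontal axis, % of the number in brackets) for the 15 genes with the most intronic regions (vertical axis), with 1 point per library coloured by hours after PHx. Pde4d, Gm37240, Gse1, Plcb1 and Pard3 overlap undamaged liver at every time, and Zbtb20 is lowest at 96 h, with 15 and 17 of 42 regions.

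Per 100 kb of intron, the densest genes with at least 10 regions were Hlf (22.6 regions), which encodes a PAR bZIP factor with a daily rhythm in liver, Bcl2l1 (21.2), which encodes the survival protein Bcl-xL, Slc7a2 (20.8), a carrier of cationic amino acids, Mtss1 (17.9) and Slc37a1 (17.4), a sugar phosphate transporter. The median of such genes was 6.32. For Hlf, 4 and 7 of 11 regions were present at 0 h and 7 and 4 at 48 h, with overlap at every time. Slc37a1 had 8 and 7 of its 10 regions at 0 h, then 4 and 5 at 48 h, 5 and 6 at 72 h, ending with 5 and 5 at 96 h, and lay below undamaged liver at all 3 times.

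Few regions of any 1 gene were gained or lost, so the third place in each list was shared by 4 to 14 gene models, from which the model with the fewest intronic regions was named. Apart from Gm20388 and Fgfr2, Dusp10 was named in this way among the 14 models that lost 3 regions at 48 h, Adgrv1 and Rbfox2 among the 4 that lost 4 at 72 h (with Nfib and Arid5b), and Met among the 11 that lost 3 at 96 h, when Adgrv1 lost 4. Adgrv1, an adhesion G protein-coupled receptor (chr13:81095068-81633154), had 13 and 14 of 15 regions at 0 h, then 10 and 7 at 48 h, 9 and 7 at 72 h, ending with 7 and 9 at 96 h. Of the 15 regions, 12 lay in intron 83. Rbfox2, a splicing factor (chr15:77078990-77307004), had 11 and 14 of 18 regions at 0 h, then 12 and 9 at 48 h, 8 and 8 at 72 h, ending with 7 and 7 at 96 h. Dusp10, a phosphatase of stress-activated MAP kinases, had 4 and 4 of 6 at 0 h and 3 and 2 at 48 h. Among genes with gained regions, Arhgap26 (4 at 48 h, 4 at 96 h) and Zfhx3 (5 at 72 h) came next after Gm20388 or Fgfr2 without a tie. Pag1 was 1 of 13 models that gained 3 at 48 h, Schip1 1 of 10 that gained 4 at 72 h and Prkg1 1 of 7 that gained 3 at 96 h. Zfhx3, a homeobox and zinc finger factor (chr8:107942644-108961630), had 12 and 13 of 27 regions at 0 h, then 15 and 15 at 48 h, 19 and 22 at 72 h, ending with 19 and 16 at 96 h, above undamaged liver at all 3 times. Prkg1, a kinase activated by cyclic GMP, had 1 and 2 of 6 at 0 h, then 1 and 1 at 48 h, 2 and 2 at 72 h, ending with 5 and 5 at 96 h. These genes were chosen for their change, and no test was made of it.

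Met, the receptor for hepatocyte growth factor, is known as one of the main starters of liver regeneration. All 8 of its intronic regions (gene at chr6:17463800-17573980) were present in both libraries of undamaged liver. There were 7 and 6 at 48 h, 5 and 5 at 72 h, then 4 and 5 at 96 h, and no time overlapped undamaged liver. A region in each of introns 3, 12, 16 and 20 was present in all 8 libraries. The 3 regions lost at 96 h lay in introns 1 and 3, and their windows were chr6:17469070-17469269, chr6:17478328-17478527 and chr6:17511827-17512026. They are shown because they carry the drop in the number for this receptor. The middle one held a FOXA match and an ONECUT match, and the others held none of the 15 motifs.
Met, 5013 bp from the nearest TSS: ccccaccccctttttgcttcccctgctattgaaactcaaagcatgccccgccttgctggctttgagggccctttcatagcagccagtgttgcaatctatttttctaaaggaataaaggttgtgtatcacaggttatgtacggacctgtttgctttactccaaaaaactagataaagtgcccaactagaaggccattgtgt
Met, 12613 bp from the nearest TSS: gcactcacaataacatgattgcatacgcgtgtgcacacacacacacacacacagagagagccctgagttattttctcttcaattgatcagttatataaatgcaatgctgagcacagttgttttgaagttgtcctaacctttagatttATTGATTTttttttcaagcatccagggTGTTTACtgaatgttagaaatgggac
Met, 20366 bp from the nearest TSS: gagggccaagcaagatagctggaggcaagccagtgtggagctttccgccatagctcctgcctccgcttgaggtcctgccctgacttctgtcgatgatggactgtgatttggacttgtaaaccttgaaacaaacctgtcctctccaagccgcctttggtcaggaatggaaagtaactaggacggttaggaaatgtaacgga

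The first of these regions of Met had fold enrichments of 5.87 and 5.60 at 0 h, then 2.39 and 3.82 at 48 h, 3.54 and 4.43 at 72 h, ending with 4.12 and 3.85 at 96 h, below undamaged liver in all 6 later libraries. The second had 6.15 and 8.73 at 0 h but 5.77 and 4.36 at 96 h. The third, with 5.80 and 5.32 at 0 h against 5.56 and 4.06 at 96 h, overlapped in strength although it left the strongest intervals. The mean log2 fold enrichment over the introns of Met differed from undamaged liver by −0.10 ± 0.13 at 48 h, −0.07 ± 0.13 at 72 h and −0.26 ± 0.13 at 96 h (estimate ± SE, limma, adjusted p = 0.873, 0.955 and 0.870). The maps of Met and Zbtb20 show which regions were present in each library.

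**Figure D5:**
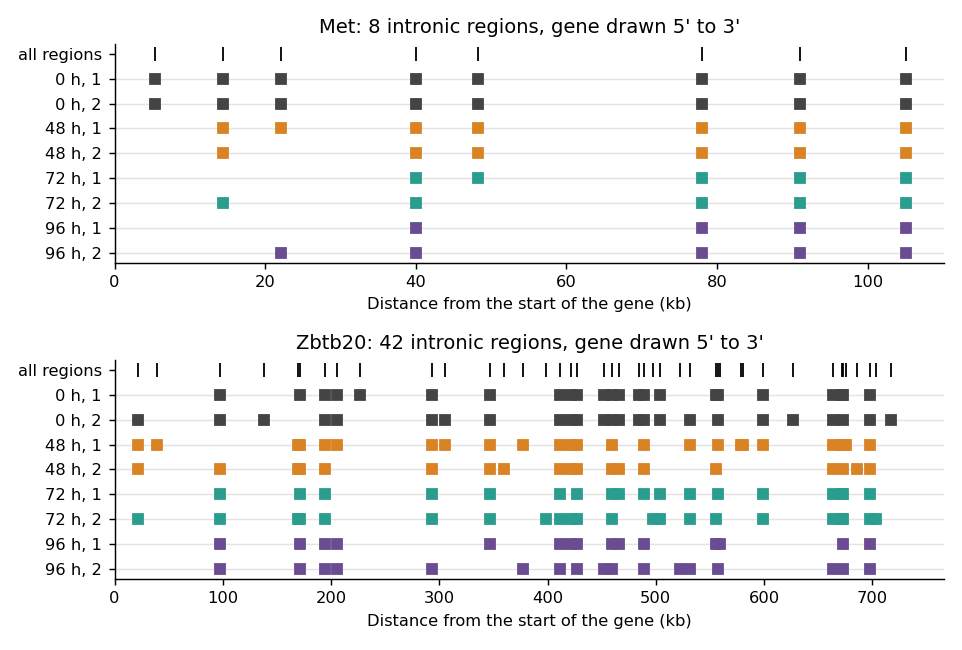
Intronic regions of Met (top) and Zbtb20 (bottom) by distance from the start of the gene (horizontal axis, kb), with a square where the region was present in a library (rows, hours after PHx and replicate) and a tick for every region of the gene. In Met, the region nearest the start was present in both libraries of undamaged liver and in none after PHx.

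Lists of genes with a role in the regenerating liver were then counted. The 24 transcription factors of hepatocytes held 246 intronic regions in 17 genes, and none lay in Foxa1, Foxa2, Foxa3, Cebpa, Cebpb, Nr1i3 or Esrra. Of the 246 regions, 5 (2.03%) were gained and 13 (5.28%) were lost at 48 h, 3 (1.22%) and 13 (5.28%) at 72 h, then 3 (1.22%) and 9 (3.66%) at 96 h. Over all intronic regions, 2.96% were gained and 4.22% lost at 48 h. For 72 h these shares were 3.38% and 2.97%, and for 96 h 2.47% and 2.90%. Nfib, a nuclear factor I protein, had 20 and 21 of 28 regions at 0 h, then 18 and 19 at 48 h, 15 and 13 at 72 h, ending with 14 and 19 at 96 h, below undamaged liver at all 3 times. This held for presence among the strongest intervals, and the mean log2 fold enrichment over its introns differed by 0.04 (48 h), −0.01 (72 h) and 0.03 (96 h), each less than its SE of 0.12 (limma, adjusted p = 0.963, 0.996 and 0.988). Nr1i2, the xenobiotic receptor PXR, had 5 and 6 of 6 at 0 h, then 3 and 3 at 48 h, 4 and 2 at 72 h, ending with 4 and 3 at 96 h, also below at all 3 times. Thrb, a thyroid hormone receptor, had 13 and 15 of 26 at 0 h and 16 and 16 at 48 h, above at 48 h. Hnf4a itself held 7 regions, 3 and 4 present at 0 h and 3 to 5 in later libraries. The mean log2 fold enrichment over its introns was 0.52 ± 0.13 higher at 48 h and 0.40 ± 0.13 higher at 96 h (limma, unadjusted p = 0.00154 and 0.00816), and neither passed the adjustment over genes (adjusted p = 0.395 and 0.671).

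The 17 receptors of growth factors and cytokines held 109 intronic regions in 16 genes, with none in Fgfr4. Between 50 and 73 of the 109 were present in a library, 73 and 67 at 0 h, then 59 and 57 at 48 h, 61 and 60 at 72 h, ending with 50 and 56 at 96 h, so undamaged liver stood above all later libraries. Of these regions, 2 (1.83%) were gained and 5 (4.59%) lost at 48 h, 3 (2.75%) and 6 (5.50%) at 72 h, then 0 (0%) and 4 (3.67%) at 96 h. Over all intronic regions the shares gained and lost were 2.96% and 4.22% at 48 h, 3.38% and 2.97% at 72 h, then 2.47% and 2.90% at 96 h. Among the receptors with at least 5 regions, Met alone lay below undamaged liver without overlap at all 3 times, and Il6ra and Notch2 did so at 96 h. Egfr, the receptor for epidermal growth factor, had 9 and 3 of 12 at 0 h and 4 to 7 in later libraries, with overlap. Lgr4, a receptor for R-spondins, had 8 and 8 of 13 at 0 h, then 7 and 7 at 48 h, 6 and 7 at 72 h, ending with 4 and 10 at 96 h, below at the first 2 times. Insr, the insulin receptor, was the one of these with an unadjusted p under 0.05 in the fit over genes, with a log2 difference of −0.34 ± 0.14 at 48 h (limma, adjusted p = 0.561).

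Genes of the cell cycle held few. Of 14, 7 held 25 regions, 11 of them in Cdk6 and 6 in Rb1, and Ccne1, Ccna2, Ccnb1, Cdk1, Mki67, Top2a and Mcm2 held none. Of the 25 regions, 1 was lost at 48 h and no other was gained or lost at any time. The 22 genes of adult hepatocyte metabolism held 84 regions in 15 genes. Of these, 1 (1.19%) was gained and 6 (7.14%) were lost at 48 h, against 2.96% and 4.22% of all intronic regions. At 72 h and again at 96 h, 1 (1.19%) was gained and 5 (5.95%) were lost, against 3.38% and 2.97% of all intronic regions at 72 h and 2.47% and 2.90% at 96 h. The median log2 difference in strength over the 7 genes tested was 0.12 at 48 h, opposite in sign to the excess of losses, with Acsl1, an acyl-CoA synthetase, 0.35 ± 0.14 higher (limma, unadjusted p = 0.0297, adjusted p = 0.561). With so few regions these shares are a description, and no difference from other genes was tested. Cpt1a, which encodes the enzyme that admits fatty acids to mitochondria, had 3 and 3 of 5 regions at 0 h, then 1 and 1 at 48 h, 4 and 4 at 72 h, ending with 4 and 4 at 96 h. Aldh1l1, a folate enzyme (4 of its regions in the RefSeq body), had 11 and 13 of 15 at 0 h, then 9 and 11 at 48 h, 9 and 10 at 72 h, ending with 11 and 6 at 96 h.

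Strength was compared across all libraries with limma on quantile-normalised log2 fold enrichment, over the 55123 regions listed in all 8 libraries, 17370 of them intronic. The test called 0 regions, intronic or other, at any time (0% of those tested in each direction, adjusted p under 0.05). The smallest adjusted p of an intronic region by limma was 0.117 (48 h), 0.409 (72 h) and 0.470 (96 h). At an unadjusted p under 0.05, 891 intronic regions (5.13%) were higher and 953 (5.49%) lower at 48 h, where 5.01% and 5.26% of all regions were. At 72 h the counts were 717 and 382, against 3.80% and 2.57% of all regions, and at 96 h they were 550 and 503, against 3.10% and 2.64%. These shares lay near those over all regions. The balance at 48 h depended on the scaling, with 1137 higher and 821 lower under median centring (median log2 difference 0.02). With −log10 p as the value it was 1049 higher and 963 lower. It also turned to more higher than lower without 0 h replicate 1. Without 0 h replicate 2 the counts were 458 and 511 at 48 h, and without 96 h replicate 1 those of 96 h were 514 and 927. The median log2 difference of intronic regions was −0.01 (48 h), 0.01 (72 h) and −0.02 (96 h). Of the regions named above, that of 4932414N04Rik had the smallest adjusted p at 48 h, with a log2 difference of 1.84 ± 0.30 (limma, adjusted p = 0.117), and that of Dnah11 differed by −1.45 ± 0.25 (limma, adjusted p = 0.119).

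Over genes, the mean log2 fold enrichment of the intronic regions was compared in the same way for 2048 genes with at least 3 such regions. No gene was called at any time (0 of 2048 in each direction). At an unadjusted p under 0.05, 64 genes (3.12%) were higher and 112 (5.47%) lower at 48 h, 70 (3.42%) and 42 (2.05%) at 72 h, then 50 (2.44%) and 62 (3.03%) at 96 h. The balance at 48 h turned round to 106 higher and 72 lower under median centring, and stood at 101 and 94 without 0 h replicate 1 and 38 and 56 without 0 h replicate 2. Without 96 h replicate 1, the counts of 96 h were 49 and 115. The smallest adjusted p values by limma at the 3 times were 0.284 (48 h), 0.0915 (72 h) and 0.498 (96 h).

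The intervals with the highest ranks in all 8 libraries were then named. By mean percentile, where 100 is the strongest interval of a list, the first 5 intronic regions lay in Tbx20 (chr9:24745017-24745330), Zdhhc3, Il1rapl1, Akap7 and Nav1, and each was at percentile 98.8 or above in all libraries. The Tbx20 and Zdhhc3 regions shared words of 25 bases with the mouse mitochondrial genome (22 and 26 such words). Of all 25310 intronic regions 5 did so (0.0198%), and none of those gained or lost at any time. The Tbx20 region had fold enrichments of 44.0 to 51.4 in the 8 libraries. Its window, at chr9:24745072-24745271, is shown because it was the strongest, and it held 1 GATA match (AGATAAG).
Tbx20: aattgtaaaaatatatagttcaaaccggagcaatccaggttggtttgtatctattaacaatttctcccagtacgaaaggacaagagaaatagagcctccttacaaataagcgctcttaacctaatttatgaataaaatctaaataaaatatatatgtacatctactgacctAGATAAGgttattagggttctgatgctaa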

How the data were processed

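Bulk ATAC-Seq of mouse hepatocytes was analysed in 8 libraries, 2 from undamaged liver and 2 from each of 3 times after PHx (48, 72 and 96 h). The authors trimmed the reads, aligned them to mm10 with Bowtie2, removed PCR duplicates and called peaks per library with MACS2 through the ENCODE ATAC-seq pipeline, without pooling replicates (tool versions and read counts are not given in the sources used here). The deposited peak lists give a score (not used here), the fold enrichment over local background as a ratio, and −log10 p-value and −log10 q-value columns. Depth is unknown, so no counting intervals are given, and the number of libraries limits the precision.

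Intervals listed more than once were collapsed, and the 50000 with the highest −log10 p per library were merged. GENCODE M21 basic annotation of mm10 gave TSSs, genes, exons and introns, and RefSeq gave gene bodies and promoter windows. The members and gene lists were chosen with earlier results of these data known. Motifs were searched on both strands in 200 bp windows around summits. The words of AP-1, HNF4, FOXA, C/EBP, TEAD, GATA, ETS and KLF/SP are spelled with the results. The other motifs were ONECUT (ATTGATTT or ATCGATTT), STAT (TTCNNNGAA), NRF1 (GCATGCGC), E2F (TTTCGCGC or TTTGGCGC or TTTCCCGC), and CTCF, NFI and HNF1 by name. Where motifs overlap, each was counted.

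Fits used limma 3.58.1 in R 4.3.3, on quantile-normalised log2 fold enrichment of regions listed in all 8 full lists, with Benjamini-Hochberg adjustment over all regions or genes. The scripts were tested on simulated data. Other steps used Python 3.11.15. Named genes were the 15 with most intronic regions, the 5 densest, the 3 with most gained and most lost regions per time, and list members with at least 5 regions. Named regions were the 5 strongest and, with no call in the fit, the 5 gained and 5 lost per time with the highest percentile in the weaker library. Alternatives changed the number of intervals kept, TSS distance, exon set, coverage, absence rule, value, normalisation, missing intervals, replicate block, window and libraries.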

Additional observations from a re-analysis of the deposited data

Results flagged for a closer look

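In Tcf7l2, a mediator of Wnt signalling, the number of intronic regions present moved in opposite directions at 48 and 72 h. Undamaged liver had 13 and 11, the 48 h libraries 9 and 8, and the 72 h libraries 16 and 15 (means 12, 8.5 and 15.5), a difference of 7 regions between the later times. This concerns presence among the strongest intervals, and the mean log2 fold enrichment over its introns differed from undamaged liver by 0.05 at 48 h and 0.11 at 72 h, in the same direction, each less than its SE of 0.13. In Cpt1a the mean was 3 in undamaged liver, 1 in the 48 h libraries and 4 in those of 72 h, equal to that of 96 h, so that both 72 h and 96 h differed from 48 h by 3 regions in the opposite direction from undamaged liver. These differences were not tested, and all times share the libraries of undamaged liver. Groups of 2 libraries are too small for a check for outlying samples.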

How the results depend on the processing

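The number of intronic regions was 11489 with the 25000 strongest intervals kept, 141222 with all distinct intervals, and 24418 to 25044 with 1 library left out. With 25000 intervals, 478 regions were gained and 522 lost at 48 h (487 and 343 for 72 h, 348 and 371 for 96 h). With all intervals, 1525 were gained and 2626 lost at 48 h, compared with 4081 and 1053 at 72 h and 2286 and 1477 at 96 h. When absence meant no interval in the full list, the counts were 15 and 40, 19 and 2, and 9 and 5. With 1 library left out, gained and lost counts ranged from 751 to 2468 and 1069 to 2741 at 48 h (855 to 2394 and 752 to 2366 at 72 h, 627 to 2321 and 735 to 2343 at 96 h). The difference in intronic share ranged from −0.421 to 0.635 points over its alternatives (exact permutation p 0.286 to 0.964), and from −0.421 to 0.099 with 1 library left out. Of the 40 class comparisons, 34 to 37 passed, depending on the alternative. In limma fits, −log10 p as the value called 2 intronic regions higher and 3 lower at 48 h (14 and 7 of all 55123 regions), and filling missing intervals called 1 gene lower at 48 h. Fits with 1 library left out hold a group of 1 library, so their spread comes from the other groups. Some of them called a few regions, mostly outside introns, and none called a gene. At an unadjusted p under 0.05, counts of regions and genes per time and direction moved by over 1.5 times without some libraries. Intronic regions at 72 h numbered 351 higher and 183 lower without 0 h replicate 2 and 410 and 251 without 72 h replicate 2, and those of 96 h 267 and 248 without 0 h replicate 2. Genes ranged from 31 to 118 higher and 25 to 63 lower at 72 h (32 to 98 and 33 to 115 at 96 h), with the extremes without 0 h replicate 1 or 2 or 96 h replicate 1. The cause was not tested.

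With the replicate number as a block, 0 regions and 0 genes were called. The deviations of same-numbered libraries had correlations of −0.0562 to 0.128 between times. Correlations of this size do not show whether these libraries share a preparation, day or run, and that was not tested. In 400 bp windows the words occurred in 10.2% (AP-1), 4.33% (HNF4) and 16.0% (FOXA) of intronic intervals. Comprehensive annotation, RefSeq bodies and counting in the shortest gene were chosen after seeing the data. Of 389 values under alternatives, 300 kept their side of the threshold or, for counts and shares, stayed near the main value. Direction was not required where neither test passed. Counts of called regions or genes that stayed at 0 are included among the 300.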
